A study of Mus musculus with 8 samples.

Results

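Retinoid metabolism genes were followed across primary mouse hepatocytes in which one or both heme oxygenases were perturbed. The 8 genes were Cyp26a1, Cyp26b1, Aldh1a1, Aldh1a2, Rdh10, Dhrs3, Lrat and Bco1, out of 19937 genes measured. Cyp26a1 was chosen by its log2 fold change, among the largest falls in HO1 knockout cells against control, and the others because they act in the same pathway. The choice was made with earlier results of these data known. Each gene had 1 probe set (a group of array probes summarised to 1 value), so no choice between probe sets arose. The hepatocytes came from male BALB/c mice, either HO1+/+ or HO1-/- for the inducible heme oxygenase gene Hmox1, and their age is not given in the sources used here. Every culture was transduced with lentivirus and selected with puromycin. The virus expressed a short hairpin RNA (shRNA) that was scrambled or directed at Hmox2, the gene of the constitutive heme oxygenase HO2, for which 1 hairpin was used. After 3 days of selection all cells were given 1 µM dexamethasone for 30 min and were harvested 28 h later. With the scrambled hairpin, HO1+/+ cells are called control and HO1-/- cells HO1 knockout. With the HO2 hairpin, HO1+/+ cells are called HO2 knockdown and HO1-/- cells combined, and each of these 4 groups has 2 arrays.

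Retinoids are vitamin A and its derivatives. BCO1 cleaves beta-carotene to retinal, RDH10 oxidises retinol to retinal and DHRS3 reduces retinal back to retinol, and LRAT esterifies retinol for storage. ALDH1A1 and ALDH1A2 oxidise retinal irreversibly to retinoic acid, which binds nuclear receptors, and CYP26A1 and CYP26B1 hydroxylate retinoic acid for removal. In liver, retinyl esters are stored mainly in stellate cells, which express Lrat, and Cyp26a1 is known as a gene strongly induced by retinoic acid itself.

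The labels could be checked for the hairpin and not for the genotype. Hmox2 signal on the log2 scale was 11.41 and 11.57 in control, 11.59 and 11.60 in HO1 knockout, 8.32 and 8.38 in HO2 knockdown and 9.26 and 9.32 in combined, so the arrays with HO2 shRNA lay below all others, and less was lost in combined. Hmox1 means were 11.97 in HO1 knockout and 12.44 in combined, above the 11.43 of control and the 11.55 of HO2 knockdown, so this gene's signal went against the HO1-/- label. The labels do not say which exons the knockout removes, and every direction given for HO1 rests on the labels. Of 20 hepatocyte markers 19 were measured, and albumin (Alb) lay between 13.32 and 13.99 on all arrays, while Cyp2e1 lay among the dimmest 25% of genes. The summed linear signal of these markers was 51260 to 52276 in control, 68155 to 68909 in HO1 knockout, 105704 to 108892 in HO2 knockdown and 115726 to 118929 in combined. Summed signal of 20 macrophage markers was 8988 to 9423 in control and 7740 to 7991 in HO2 knockdown, but 36505 to 37403 in HO1 knockout and 35185 to 37323 in combined. For 23 stellate cell and fibroblast markers the sums were 18636 to 18798, 15488 to 16000, 18595 to 18992 and 17287 to 17825 in control, HO1 knockout, HO2 knockdown and combined. Sinusoidal endothelial markers (16 measured) summed to 3301 to 3362, 5830 to 5891, 3962 to 4191 and 6282 to 6618 in the same order, and cholangiocyte markers (7 of 10 measured) to between 9599 and 10146 on every array. In HO1 knockout against control 5 of the 16 endothelial markers rose, 1 fell and 10 did not pass (median log2 fold change 0.15). In that comparison 5.62% of all genes were higher and 7.20% lower. The largest endothelial rises were Fcgr2b (3.18) and Stab1 (2.20), so that sum does not stand for the whole list. Nor does the cholangiocyte sum, as in combined against control Krt7 rose by 1.33 while Sox9 and Slc4a2 changed by -0.76 and -0.52. The other 4 cholangiocyte markers did not pass there, where 11.6% of all genes were higher and 18.3% lower. The shifts in summed marker signal move with the groups compared below and their part in the results was not tested. Fewer cells of a type and less RNA per cell cannot be told apart in such bulk samples, nor can genotype and hepatocyte preparation. The labels call the replicates biological without naming separate animals or cultures, so a p-value here covers only the spread among these arrays, which may be technical.

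Cyp26a1 was low with the HO1-/- genotype and high with HO2 shRNA, and each shift was similar in both states of the other condition. Its promoter carries a direct repeat of the kind that retinoic acid receptors paired with RXR bind, and it is shown here beside that of Rarb, a retinoic acid receptor gene known as a target of its own ligand. The lines give the 100 bases before each start site on the gene's strand, from RefSeq (GRCm38.p6), with capitals marking the DR5, a direct repeat with 5 bases between its units.
Cyp26a1, chr19:37697708-37697807, plus strand: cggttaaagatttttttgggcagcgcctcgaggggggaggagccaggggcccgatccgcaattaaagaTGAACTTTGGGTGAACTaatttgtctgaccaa
Rarb, chr14:16575477-16575576, minus strand: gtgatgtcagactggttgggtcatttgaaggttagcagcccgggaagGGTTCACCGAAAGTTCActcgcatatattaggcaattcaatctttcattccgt
The Cyp26a1 repeat lies 32 to 16 bases before the start and reads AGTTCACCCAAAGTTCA on the opposite strand, while that of Rarb lies 53 to 37 bases before the start. A unit was AGGTCA or its variant AGTTCA, or else GGGTCA or its variant GGTTCA. The search took a unit, any 5 bases and a second unit in the same orientation, on both strands of windows from 250 bases before to 50 after a start. Such a repeat was in 32 of 32851 windows (0.0974%). Windows were given for 7 of the 8 genes, all but Rdh10, and of these only that of Cyp26a1 held a DR5.

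Log2 signal of Cyp26a1 was 9.16 and 9.37 in control, 7.75 and 7.63 in HO1 knockout, 10.59 and 10.37 in HO2 knockdown and 9.03 and 8.80 in combined. No group overlapped another, and the order from low to high was HO1 knockout, combined, control, HO2 knockdown. From the lowest to the highest array the signal spanned 7.79-fold on the linear scale, the widest span of the 8 genes. The lowest array is an HO1 knockout array, of the groups by which the gene was chosen, so this span is a description. In scrambled cells HO1 knockout lay at 33.6% of control (log2 fold change -1.58, SE 0.10), the 4th largest fall of all genes. This is the contrast on which the gene was chosen, and it is given as a description. With HO2 shRNA, on 4 other arrays (the estimate of spread is shared by all 8), the genotype shift was of like size: combined lay at 33.9% of HO2 knockdown (log2 fold change -1.56, SE 0.10, limma adjusted p = 1.03e-08), the 9th largest fall of all genes. Leaving out any 1 of the 8 arrays did not end this call.

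The hairpin moved Cyp26a1 the other way. HO2 knockdown stood at 232% of control (log2 fold change 1.21, SE 0.10) and combined at 234% of HO1 knockout (log2 fold change 1.23, SE 0.10). Both values share arrays with the contrast that chose the gene and have no test here. The difference between the hairpin effects in the 2 genotypes was 0.013 on the log2 scale (SE 0.14), and combined ended at 78.6% of control. Hepatocyte markers were also higher with HO2 shRNA (17 of 19 passed the test upwards against control and Apob downwards, median log2 fold change 1.08). In that comparison 16.5% of all genes were higher (median -0.066). Of the 20 macrophage markers, Kupffer cell genes among them, 13 rose in HO1 knockout, Vsig4 fell and 6 did not pass (median 1.66). There 5.62% of all genes were higher and 7.20% lower (median -0.041). The part of neither set of markers in the Cyp26a1 shifts was tested.

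**Figure D1:**
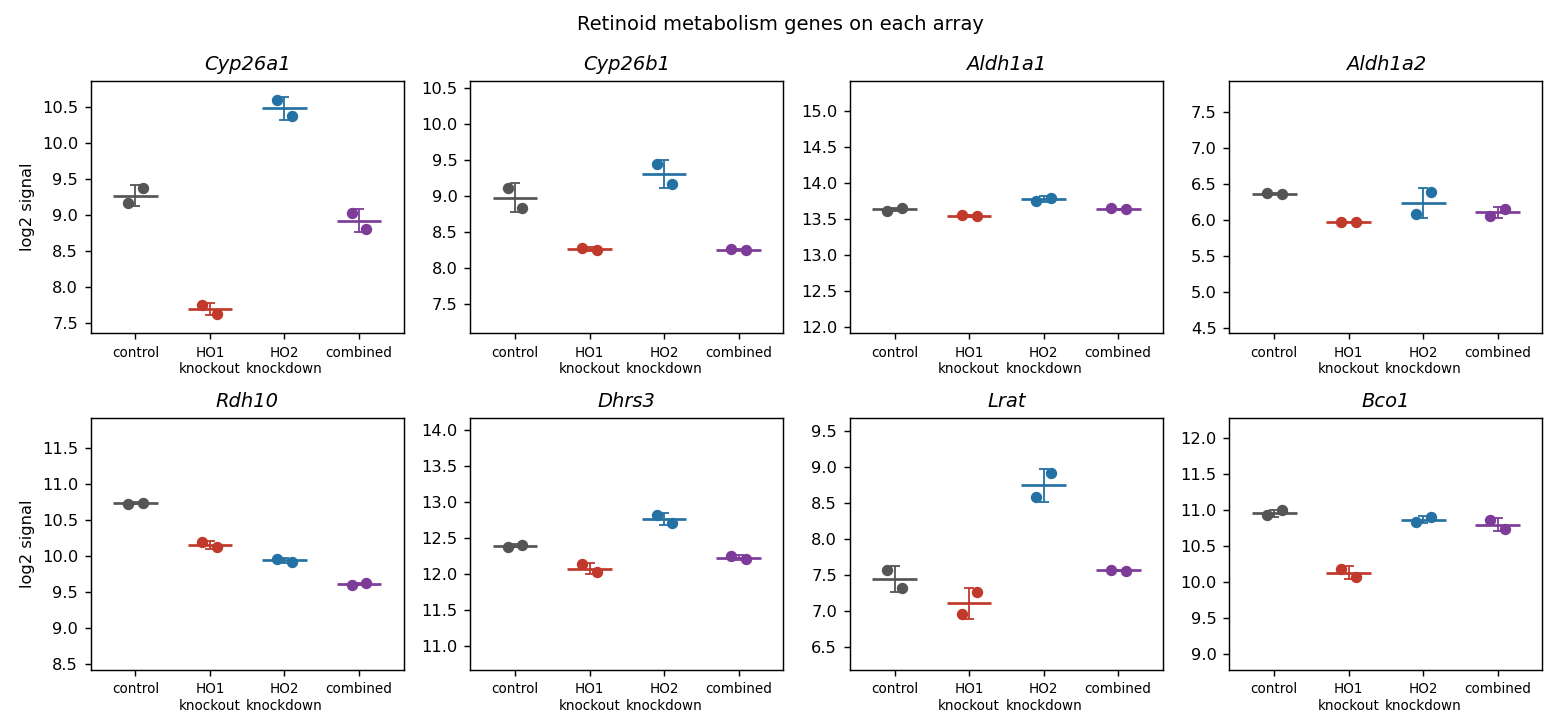
Log2 signal of the 8 retinoid genes (vertical axes, equally long in log2 units and centred on each gene) on each of 2 arrays in the 4 groups. Points are arrays, horizontal bars are group means and error bars are SD. Cyp26a1 ranged from 7.63 in HO1 knockout to 10.59 in HO2 knockdown, while Aldh1a1 stayed between 13.53 and 13.79.

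Cyp26b1, which encodes the related retinoic acid hydroxylase, was also lower with the HO1-/- genotype, with smaller hairpin differences. On the log2 scale its signal was 9.11 and 8.82 in control, 8.27 and 8.24 in HO1 knockout, 9.44 and 9.16 in HO2 knockdown and 8.26 and 8.25 in combined. All 4 HO1-/- arrays lay below all 4 HO1+/+ arrays, and HO1 knockout and combined overlapped. The genotype difference was -0.71 with scrambled shRNA (SE 0.10, limma adjusted p = 0.000178) and -1.05 with HO2 shRNA (SE 0.10, adjusted p = 2e-06), the 41st largest fall of all genes. With HO2 shRNA Cyp26b1 rose by 0.33 in HO1+/+ cells (adjusted p = 0.0227), but this call was lost without control replicate 2 (0.19, adjusted p = 0.158) or without HO2 knockdown replicate 1 (0.19, adjusted p = 0.305). In HO1-/- cells the hairpin difference was -0.006 (adjusted p = 0.982). The interaction, the difference between these hairpin effects, was -0.34 (SE 0.15, adjusted p = 0.15), and past the test without control replicate 1 (-0.48, adjusted p = 0.0367). It was -0.20 without control replicate 2 (adjusted p = 0.298) or HO2 knockdown replicate 1 (adjusted p = 0.512). The combined cells thus stood at 60.9% of control (adjusted p = 5.91e-05), as HO1 knockout did at 61.2%.

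Of the 2 retinal dehydrogenase genes followed, Aldh1a1, abundant in hepatocytes, varied least of the 8 genes in fold terms. It had log2 signals of 13.61 and 13.64 in control, 13.55 and 13.53 in HO1 knockout, 13.74 and 13.79 in HO2 knockdown and 13.64 and 13.63 in combined. Its groups followed the order of Lrat over a span of only 1.20-fold. It rose by 0.14 with HO2 shRNA in HO1+/+ cells (SE 0.034, adjusted p = 0.00584) and was 0.13 lower in combined than in HO2 knockdown (log2 fold change -0.13, SE 0.034, adjusted p = 0.00748). The first call was lost without control replicate 1 (adjusted p = 0.0547) or HO2 knockdown replicate 2 (adjusted p = 0.07), the second without HO2 knockdown replicate 2 (adjusted p = 0.0762) or combined replicate 2 (adjusted p = 0.059). Both were also lost without a mean-variance trend (adjusted p = 0.122 and 0.129), and the first after quantile normalization once more (adjusted p = 0.0569). Adjusted p-values for the other 2-group comparisons of Aldh1a1 were 0.117 (HO1 knockout against control), 0.0674 (combined against HO1 knockout) and 0.962 (combined against control). The second of these passed with array weights (adjusted p = 0.0442) and without the dimmest 25% of genes (adjusted p = 0.0488).

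Aldh1a2 was the only one of the 8 genes among the dimmest 25% of all genes. Its log2 signal was 6.37 and 6.36 in control, 5.97 and 5.97 in HO1 knockout, 6.08 and 6.38 in HO2 knockdown and 6.05 and 6.15 in combined, so HO2 knockdown overlapped both control and combined. It was lower in HO1 knockout than in control (log2 fold change -0.40, SE 0.11, limma adjusted p = 0.0223), but not past the test without HO1 knockout replicate 1 (adjusted p = 0.107) or 2 (adjusted p = 0.106), or with array weights (adjusted p = 0.0598). No other comparison of Aldh1a2 passed, the remaining adjusted p-values lying between 0.0804 and 0.475. After quantile normalization once more, combined against control passed (-0.29, adjusted p = 0.0487).

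Rdh10, which encodes the dehydrogenase that commits retinol to retinal, was the 1 gene of the 8 whose falls with each perturbation both passed the test. Bco1 and Aldh1a2 also had means below control in both, but with the hairpin alone their differences did not pass. Its log2 signal was 10.72 and 10.74 in control, 10.19 and 10.12 in HO1 knockout, 9.96 and 9.91 in HO2 knockdown and 9.60 and 9.62 in combined. The groups did not overlap and stepped down in that order. HO1 knockout stood at 67.2% of control (log2 fold change -0.57, SE 0.059, limma adjusted p = 3.53e-06), HO2 knockdown at 57.8% (-0.79, adjusted p = 4.42e-08) and combined at 46.2% (-1.12, adjusted p = 4.44e-10). Each perturbation lowered it on top of the other. The hairpin changed it by -0.54 in HO1-/- cells (adjusted p = 3.85e-06), and the genotype by -0.33 in cells with HO2 shRNA (adjusted p = 0.000594). The interaction of 0.25 (SE 0.084) did not pass (adjusted p = 0.0658), but did after quantile normalization once more (0.33, adjusted p = 0.0159).

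Dhrs3, whose product reduces retinal to retinol and so works against RDH10, followed Cyp26a1 rather than Rdh10. Its log2 signal was 12.38 and 12.41 in control, 12.14 and 12.03 in HO1 knockout, 12.82 and 12.71 in HO2 knockdown and 12.26 and 12.21 in combined. The groups did not overlap and stood in the order of Cyp26a1. Dhrs3 fell by 0.31 in HO1 knockout (SE 0.049, limma adjusted p = 0.000326) and rose by 0.37 in HO2 knockdown (SE 0.049, adjusted p = 2.21e-05). The genotype difference with HO2 shRNA was -0.54 (SE 0.049, adjusted p = 8.02e-07). Smaller values near the threshold were a rise of 0.15 from HO1 knockout to combined (adjusted p = 0.0396), a difference of -0.16 between combined and control (adjusted p = 0.0183) and an interaction of -0.22 (SE 0.07, adjusted p = 0.0489). Without a mean-variance trend their adjusted p-values were 0.2, 0.131 and 0.19, and each was also lost without combined replicate 2 (0.0819, 0.156 and 0.173). The first and the interaction were lost without combined replicate 1 (0.249 and 0.0882) and after quantile normalization once more (0.0592 and 0.276). The first was further lost without HO1 knockout replicate 2 (0.303), the difference from control without control replicate 2 (0.0884), and the interaction without control replicate 1 (0.118), HO1 knockout replicate 1 (0.187) or HO2 knockdown replicate 1 (0.214), or with array weights (0.0568).

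**Figure D2:**
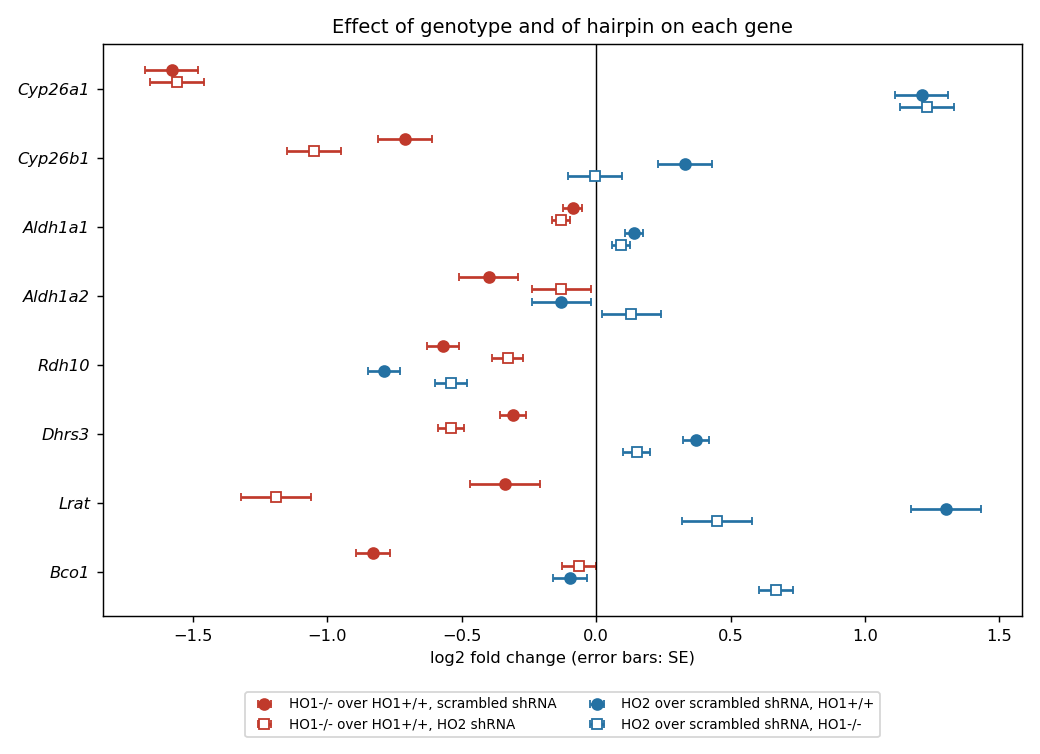
Log2 fold change of each retinoid gene (horizontal axis, with SE) between genotypes (red) and between hairpins (blue). Filled circles are the effects on scrambled shRNA or HO1+/+, open squares those on HO2 shRNA or HO1-/-. Cyp26a1 lies at -1.58 and -1.56 for genotype and at 1.21 and 1.23 for hairpin, and only Rdh10 has all 4 values past the test below 0.

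Lrat, the retinol esterifying enzyme, was highest in HO2 knockdown and close to control in combined. Lrat signal (log2) was 7.57 and 7.32 in control, 6.95 and 7.26 in HO1 knockout, 8.58 and 8.91 in HO2 knockdown and 7.57 and 7.55 in combined. Both HO2 knockdown arrays lay above all others, and control overlapped combined. HO2 shRNA raised Lrat to 246% of control in HO1+/+ cells (log2 fold change 1.30, SE 0.13, limma adjusted p = 9.56e-07). In HO1-/- cells Lrat rose by 0.45 (SE 0.13, adjusted p = 0.0161), a call lost without HO1 knockout replicate 1 (0.30, adjusted p = 0.224), combined replicate 1 (adjusted p = 0.0963) or combined replicate 2 (adjusted p = 0.0864). The hairpin effect was thus smaller in HO1-/- cells by 0.85 (interaction -0.85, SE 0.18, adjusted p = 0.00651). The knockdown was itself unequal, Hmox2 changing by -3.14 in HO1+/+ cells and by -2.3 in HO1-/- cells (interaction 0.84, adjusted p = 3.86e-05). Its part in the Lrat interaction was not tested. For Lrat, combined stood at 44.0% of HO2 knockdown (log2 fold change -1.19, adjusted p = 4.61e-06), the 26th largest fall of all genes. HO1 knockout against control gave -0.34 (adjusted p = 0.105), past the test without control replicate 2 (-0.47, adjusted p = 0.0392) and smaller without HO1 knockout replicate 1 (-0.19) or control replicate 1 (-0.21).

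Stellate cells are the main Lrat-expressing cells of liver, and the signal of their markers is given beside that of Lrat. In HO2 knockdown against control 5 of 23 rose, 4 fell and 14 did not pass, with a median log2 fold change of -0.023 (all genes -0.066). In that comparison 16.5% of all genes were called higher and 16.7% lower. Among 4 of the markers, Reln rose by 0.93 (adjusted p = 9.1e-07), Des gave 0.024 (adjusted p = 0.891), Lhx2 -0.023 (adjusted p = 0.863) and Gfap -0.25 (adjusted p = 0.101). In HO1 knockout against control 12 of the 23 fell and Ecm1 alone rose (median -0.22, all genes -0.041). There 5.62% of all genes were called higher and 7.20% lower. Des was among the falls at -0.89 (adjusted p = 5.13e-05), while Reln gave -0.079 (adjusted p = 0.699), Lhx2 -0.15 (adjusted p = 0.387) and Gfap 0.042 (adjusted p = 0.888). These 4 genes were named for what they mark, but after their values were seen. Others of the 23 moved in both directions, in HO2 knockdown Acta2 by 0.55 and Dcn by -0.56.

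Bco1, the carotenoid cleavage enzyme, was low in HO1 knockout and not in combined. Bco1 signal (log2) was 10.93 and 11.00 in control, 10.19 and 10.07 in HO1 knockout, 10.83 and 10.90 in HO2 knockdown and 10.86 and 10.74 in combined. Both HO1 knockout arrays lay below the other 6, and HO2 knockdown overlapped combined. HO1 knockout stood at 56.1% of control (log2 fold change -0.83, SE 0.063, limma adjusted p = 7.88e-08), the 64th largest fall of all genes, and combined 0.67 above HO1 knockout (adjusted p = 7.31e-07). HO2 shRNA in HO1+/+ cells gave -0.096 (adjusted p = 0.258), and genotype with HO2 shRNA gave -0.065 (adjusted p = 0.444). Combined stood at 89.4% of control (log2 fold change -0.16, adjusted p = 0.0675). The hairpin difference in HO1+/+ cells passed after quantile normalization once more (-0.17, adjusted p = 0.0414), and that of combined from control without combined replicate 1 (-0.23, adjusted p = 0.0459). The interaction of 0.77 (SE 0.089, adjusted p = 5.89e-05) was the only one past the test above 0 among the 7 genes tested. Of the 23 stellate cell and fibroblast markers, 11 rose and 3 fell in combined against HO1 knockout (all genes 10.2% and 12.8%). In the interaction 6 of these markers passed above 0 and 2 below (all genes 4.67% and 7.57%). Their part in the Bco1 values was not tested. The Bco1 promoter held a DR1, the same units 1 base apart, the spacing used by PPAR with RXR among others, and it is printed because it was the only one of the 7 genes with windows that had one.
Bco1, chr8:117095765-117095864, plus strand: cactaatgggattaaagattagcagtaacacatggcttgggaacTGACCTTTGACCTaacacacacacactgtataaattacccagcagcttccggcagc
The DR1, in capitals, lies 56 to 44 bases before the start (RefSeq, GRCm38.p6) and was found in 73 of 32851 windows (0.222%). A DR2, with 2 bases between the units, was in 88 windows (0.268%) and in none of the 7 genes, and no window held repeats of more than 1 spacing.

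The counts that follow are a description, because the 8 genes were chosen with earlier results of these data known. Counted over the 7 genes other than Cyp26a1, HO1 knockout against control had 0 higher and 5 lower, while 12.8% of all genes were called (5.62% higher and 7.20% lower). HO2 knockdown against control had 4 higher (Cyp26b1, Lrat, Aldh1a1 and Dhrs3) and Rdh10 lower, where 33.2% of all genes were called (16.5% higher and 16.7% lower). Combined against control had 0 higher and 3 lower (Cyp26b1, Rdh10 and Dhrs3), with 29.9% of all genes called (11.6% higher and 18.3% lower). Combined against HO1 knockout had 3 higher (Lrat, Dhrs3 and Bco1) and Rdh10 lower, with 23.0% of all genes called (10.2% higher and 12.8% lower). Without combined replicate 1, or without combined replicate 2, that count of 4 was 2. With Cyp26a1 included, combined against HO2 knockdown had 0 higher and 6 of 8 lower, with a median of -0.43 against 0.022 for all genes and 34.0% of all genes called (13.0% higher and 21.0% lower). The interaction was past the test for 3 of 7, Bco1 above 0 and Lrat and Dhrs3 below, with 12.2% of all genes called (4.67% above and 7.57% below 0). The balance of all calls depends on scaling. With arrays centred on their medians, 62.9% in place of 49.7% of the genes called were higher in HO2 knockdown against control, 24.1% in place of 38.2% in combined against HO2 knockdown, and 27.1% in place of 38.2% in the interaction. That centring changed the call of none of the 8 genes.

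**Figure D3:**
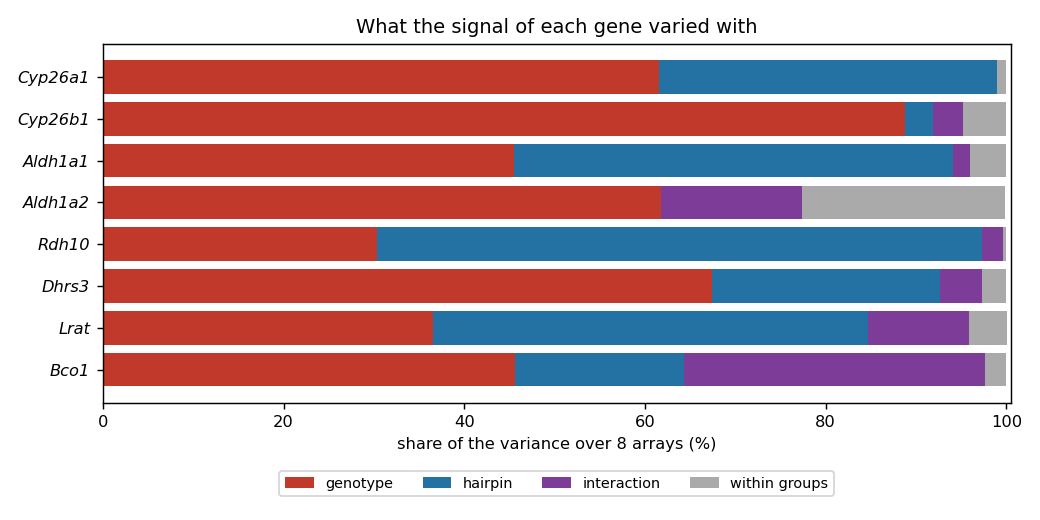
Share of each retinoid gene's variance over 8 arrays (horizontal axis, percent, from sums of squares of the balanced design) that lay between genotypes, between hairpins, in their interaction and within groups. Genotype and hairpin together hold nearly all of it for Cyp26a1 (61.6% and 37.4%) and Rdh10 (30.4% and 66.9%), while the interaction holds 33.3% for Bco1. The shares of Cyp26a1 draw on the arrays by which it was chosen and are a description.

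The genes differed in which condition their signal varied with. Genotype held 88.8% of the variance of Cyp26b1, 67.4% of Dhrs3 and 61.6% of Cyp26a1, but 30.4% of Rdh10, for which the hairpin held 66.9%. The Cyp26a1 share draws on the arrays by which that gene was chosen and is a description. For Lrat, genotype held 36.5%, hairpin 48.2% and the interaction 11.2%, and for Bco1 the interaction held 33.3%. Within groups lay 22.5% for Aldh1a2 and 4.76% or less for the others. Across the 8 arrays, which share these groups, log2 signal of Cyp26a1 correlated with that of Dhrs3 (Pearson's r 0.96), Aldh1a1 (0.95), Lrat (0.88), Cyp26b1 (0.85), Bco1 (0.80) and Aldh1a2 (0.58), and with Rdh10 at -0.063.

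Among 1308 genes whose signal spanned at least 1 log2 unit, those most like Cyp26a1 over the 8 arrays were Fmo2, a flavin monooxygenase gene (Pearson's r 0.997), Ogn, which encodes the matrix proteoglycan osteoglycin (0.995), and the beta-defensin gene Defb1 (0.99). Mean log2 signals of Fmo2 were 10.43 in control, 9.44 in HO1 knockout, 11.33 in HO2 knockdown and 10.23 in combined. Rdh10 was followed most closely by Lrig1 (0.992), Septin4 (0.992) and the Na-K-Cl cotransporter gene Slc12a2 (0.99), and Lrat by Csn3 (0.986), Phospho1 (0.986) and Krtap4-16 (0.983). Bco1 was followed by Sparc (0.986), a matrix protein gene of stellate cells and fibroblasts, with means of 11.46, 10.56, 11.48 and 11.30 in control, HO1 knockout, HO2 knockdown and combined, then by Prex2 (0.944) and Nrk (0.937). Closest to Cyp26b1 were Mxra8 (0.984), Cldn6 (0.976) and Obp2a (0.966), and closest to Dhrs3 were Prkaa2 (0.986), Ankrd23 (0.984) and Mia2 (0.979). Aldh1a1 was nearest to Igf2bp3 (0.99), Ugt2b35 (0.976) and Zmat1 (0.976), and Aldh1a2 to Cxcl10 (0.881), Gm11100 (0.863) and Mael (0.848).

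Other genes of the pathway were counted from 6 lists, and their counts are to be read against all genes, of which 5.62% were higher and 7.20% lower in HO1 knockout (median log2 fold change -0.041) and 16.5% higher and 16.7% lower in HO2 knockdown (median -0.066). Values are given for the genes of smallest p in each list, and other names only identify the members of small counts. Of the retinoid binding and transport proteins 13 of 14 were measured, and in HO2 knockdown against control 4 rose and 3 fell (median log2 fold change -0.11). The plasma retinol carrier genes Rbp4 and Ttr rose with the hairpin in HO1+/+ cells (0.57 and 0.84, adjusted p = 4.15e-08 and 5.95e-10) and, less, in HO1 knockout (by 0.25 each, adjusted p = 0.000721 and 0.000779). Log2 signal of Rbp4 was 12.40 on both control arrays and highest in combined, at 13.18 and 13.23. Unlike Cyp26a1, both were above control in all 3 other groups. Scarb1, a carotenoid and lipoprotein receptor gene, rose by 0.59 with the hairpin (adjusted p = 4.06e-06), and Stra6l was the remaining rise. The retinoic acid and fatty acid binding protein gene Fabp5 rose by 0.76 in HO1 knockout and fell by 0.37 in HO2 knockdown, the reverse of Cyp26a1, and Rbp7 and Stra6 were the other falls with the hairpin. In HO1 knockout 3 rose (Rbp4, Fabp5 and Ttr) and 0 fell.

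Among 21 retinol and retinal dehydrogenases and reductases, 1 rose and 2 fell in HO1 knockout, and 5 rose and 3 fell in HO2 knockdown (medians -0.024 and -0.021). The shares of all genes were 5.62% higher and 7.20% lower in HO1 knockout and 16.5% and 16.7% in HO2 knockdown. Rdh7 showed the largest rise, by 0.31 in HO1 knockout and 2.38 in HO2 knockdown (adjusted p = 0.0176 and 5.41e-12). Dhrs9, whose product oxidises retinol, moved as Cyp26a1 did: its log2 signal was 9.59 and 9.64 in control, 8.64 and 8.82 in HO1 knockout, 10.84 and 10.89 in HO2 knockdown and 10.38 and 10.21 in combined. It fell by 0.89 in HO1 knockout (adjusted p = 3.24e-07) and rose by 1.25 in HO2 knockdown (adjusted p = 3.52e-09). Combined lay above control, where for Cyp26a1 it lay below. The alcohol dehydrogenase genes Adh1 and Adh4 rose by 0.68 and 0.50 with the hairpin in HO1+/+ cells (adjusted p = 3.31e-09 and 0.000311), and Adh4 changed by -0.35 in HO1 knockout (adjusted p = 0.013). Rdh14 was the remaining rise with the hairpin, and Rdh11, Dhrs7 and the retinol saturase gene Retsat the falls.

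Of 9 other enzymes of retinal oxidation, retinoic acid hydroxylation and carotenoid cleavage, 0 rose and 2 fell in HO1 knockout and 4 rose and 1 fell in HO2 knockdown (medians -0.04 and 0.087). For this list and the next, the shares of all genes were 5.62% higher and 7.20% lower in HO1 knockout and 16.5% and 16.7% in HO2 knockdown. Aldh8a1, whose product oxidises cis-retinal, rose by 2.48 with the hairpin (adjusted p = 5.41e-12), the aldehyde oxidase gene Aox3 by 1.92 (adjusted p = 6.44e-12) and Aldh1a7, a close paralog of Aldh1a1 whose probes could share its signal, by 1.22 (adjusted p = 1.02e-09). The last rise was that of Cyp2s1. Aox1 changed by -0.62 in HO1 knockout (adjusted p = 2e-06) and -0.18 in HO2 knockdown (adjusted p = 0.0355), and Aldh1a7 by -0.25 in HO1 knockout (adjusted p = 0.019). Of 10 genes of retinyl ester formation and hydrolysis, 7 rose and 0 fell in HO2 knockdown (median 0.27), including the lipoprotein lipase gene Lpl (1.83), the lipase gene Pnpla2 (0.71), Ces1g (0.58) and Dgat1 (0.36), with adjusted p-values of 1.51e-11, 4.28e-09, 0.000518 and 0.000125. In HO1 knockout Lpl and Lipa rose (median -0.003), both genes that macrophages also express.

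**Figure D4:**
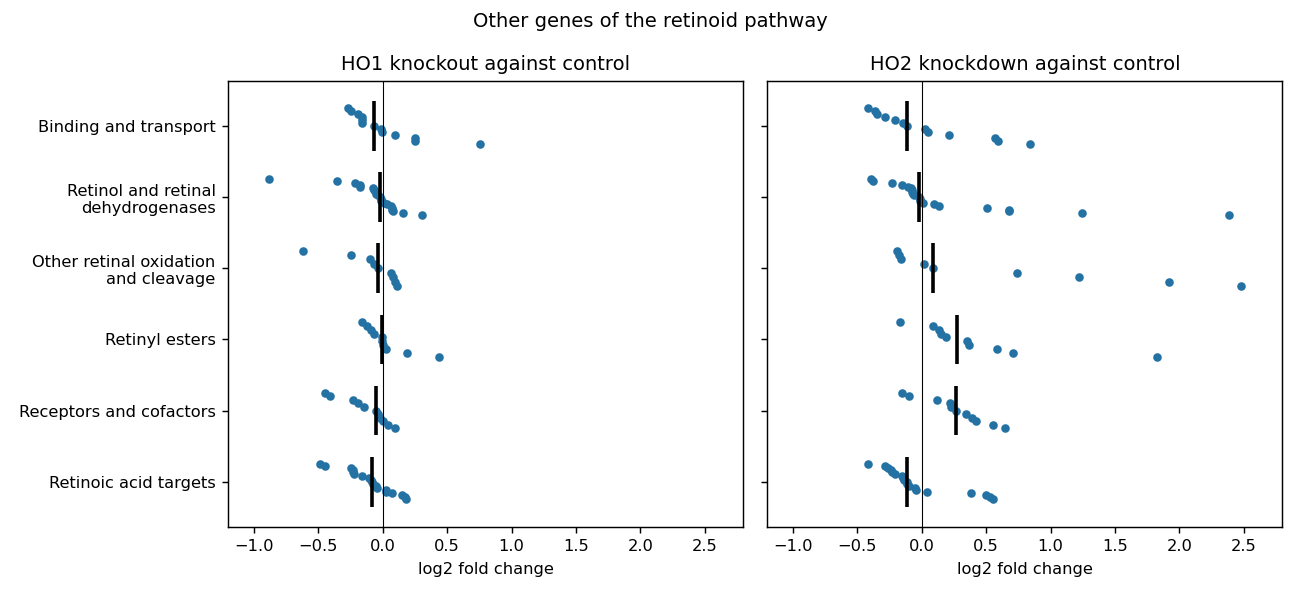
Log2 fold change (horizontal axes) of genes in 6 lists of the retinoid pathway, the 8 main genes left out, for HO1 knockout (left) and HO2 knockdown (right) against control. Points are genes and black bars list medians, which run from -0.086 to -0.003 on the left and from -0.12 to 0.27 on the right. Points beyond 1 on the right are Rdh7, Dhrs9, Aldh8a1, Aox3, Aldh1a7 and Lpl.

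Among receptors for retinoic acid, Rarb moved in the directions of Cyp26a1. Its log2 signal was 10.53 and 10.67 in control, 10.13 and 10.17 in HO1 knockout, 11.20 and 11.11 in HO2 knockdown and 10.84 and 10.85 in combined, with no overlap between groups. Rarb fell by 0.45 in HO1 knockout (SE 0.06, adjusted p = 6.08e-05), rose by 0.55 in HO2 knockdown (adjusted p = 3.01e-06) and was lower in combined than in HO2 knockdown (log2 fold change -0.30, adjusted p = 0.00116). Combined lay 0.24 above control (adjusted p = 0.00501), whereas Cyp26a1 lay below it. Of 11 receptors and cofactors measured, 7 rose and 0 fell in HO2 knockdown (median 0.26, all genes -0.066), where 16.5% of all genes were higher and 16.7% lower. The retinoid X receptor gene Rxra rose by 0.64 (adjusted p = 3.53e-07) and Ppard by 0.42 (adjusted p = 6e-05) among them. In HO1 knockout 0 rose and 3 fell (median -0.056), namely Rarb, Rxrg and the corepressor gene Nrip1 (-0.23, adjusted p = 0.0249). There 5.62% of all genes were higher and 7.20% lower.

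Retinoic acid target genes were also counted. Counts in this paragraph stand beside 5.62% of all genes higher and 7.20% lower in HO1 knockout, and 16.5% and 16.7% in HO2 knockdown. Of 19 of 22 measured, 0 rose and 3 fell in HO1 knockout (Rarb, Nrip1 and Rarres2, median -0.086), and 4 rose (Rarb, Meis1, Meis2 and Foxa1) and 3 fell (Stra6, Hoxd4 and Cdx1) in HO2 knockdown (median -0.12). Foxa1 rose by 0.38 in HO2 knockdown (adjusted p = 7.99e-05), while Tgm2, a target in many cell types, gave 0.028 and -0.046 (adjusted p = 0.831 and 0.518). Of the genes with a DR5 in their promoter window, 10 besides Cyp26a1 were measured. In HO1 knockout 0 of them rose and 2 fell (Rarb and the biliverdin reductase gene Blvrb, median -0.019). In HO2 knockdown Rarb rose and Blvrb and the chemokine gene Ppbp fell (median -0.16). This list was set from sequence after the values of Cyp26a1 were known. Of the other genes with a DR1 like that of Bco1, 37 were measured. In HO1 knockout 1 of these rose and 4 fell (median -0.033), and in HO2 knockdown 3 rose and 10 fell (median -0.11).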

How the data were processed

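Total RNA (300 ng an array) was measured on whole-transcript arrays. Per the submitters' processing notes, which name RMA, affy and R 2.15.0, the authors deposited log2 signals, with chip definition file and genome build not given in the sources used here. Array medians ran from 7.61 to 7.70, and the number of arrays limits the precision. Of 34760 probe sets, 21640 with exactly 1 gene symbol in the platform table were kept, the brightest per gene, leaving 19937 genes. No further normalization was applied.

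The model, in limma 3.58.1 under R 4.3.3, gave each of the 4 groups a mean and used all 8 arrays, with a mean-variance trend and 4 residual degrees of freedom. The 6 comparisons were tested two-sided with Benjamini-Hochberg adjustment over all genes and called at an adjusted p under 0.05. SE is the moderated standard error. The model was run on simulated arrays with independent errors and changes set in HO1 knockout alone. That run does not bear on the interaction or on replicates that may be technical. Members and lists were chosen with earlier results of these data known, so no list test was run, and Cyp26a1 was tested only in the comparison whose group means its choice did not use, though the estimate of spread draws on all arrays. Named genes were the 8 members, Hmox1 and Hmox2, the 4 smallest p of each pathway list and the 3 genes most correlated with each member. Other names follow from counts of 5 or fewer or mark a cell type, and were chosen after their values were seen. Alternatives left out each array in turn, entered replicate number as a block, or changed the threshold, scaling, array weights, variance trend, probe set rule or the floor on dim genes.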

Additional observations from a re-analysis of the deposited data

Results flagged for a closer look

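For 3 of the 7 genes tested, the effect of HO2 shRNA differed between HO1-/- and HO1+/+ cells by the test of the interaction, which 12.2% of all genes passed. The difference in log2 fold change was 0.77 for Bco1 (limma adjusted p = 5.89e-05), whose hairpin effects were 0.67 in HO1-/- cells and -0.096 in HO1+/+ cells, the latter not past the test (adjusted p = 0.258), and -0.85 for Lrat (adjusted p = 0.00651). For Dhrs3 it was -0.22 (adjusted p = 0.0489), which was lost under several other settings. The hairpin changed Hmox2 itself by -3.14 in HO1+/+ cells and by -2.3 in HO1-/- cells. The part of this unequal knockdown in the interactions was not tested. The hairpin effects on Cyp26b1 had opposite signs as differences of group means, but the difference of -0.34 did not pass the test (adjusted p = 0.15), and the effect in HO1-/- cells was -0.006, where the arrays overlapped.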

How the results depend on the processing

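With arrays as deposited, 5, 5, 3, 4, 6 and 3 of the genes tested passed in HO1 knockout, HO2 knockdown and combined against control, combined against HO1 knockout and HO2 knockdown, and the interaction. With a 1.5-fold minimum added, 2, 2, 1 and 3 passed in HO1 knockout and HO2 knockdown against control and combined against HO1 knockout and HO2 knockdown, and at an adjusted p under 0.01, 2 passed in combined against HO1 knockout. Leaving out 1 array gave 4 to 6, 4 to 5, 2 to 4, 2 to 4, 5 to 6 and 2 to 3 in the 6 comparisons. Log2 fold changes changed sign only where they were near 0 and not called. With 1 array left out, Cyp26a1 in the interaction ranged from -0.10 to 0.13, Cyp26b1 in combined against HO1 knockout from -0.023 to 0.011, Lrat in combined against control from -0.013 to 0.24 and Aldh1a1 there from -0.011 to 0.018. Aldh1a2 ranged from -0.28 to 0.016 in HO2 knockdown against control and from -0.28 to 0.019 in combined against HO2 knockdown. With centred arrays Cyp26a1 in the interaction was -0.03, Cyp26b1 in combined against HO1 knockout 0.004 and Aldh1a1 in combined against control -0.007. After quantile normalization the last 2 were 0.010 and -0.019, and Bco1 in combined against HO2 knockdown was 0.045. The causes were not tested.

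The labels do not say that replicate numbers mark a shared source. Deviations of same-numbered arrays correlated between -0.261 and 0.122, below 0 in 2 of the 6 pairs of groups. With the replicate number as a block, 5, 5, 3, 4, 6 and 3 of the genes passed, as without it, and no call of the 8 genes changed. Of all genes, the 2442 called in the interaction became 1301 without HO2 knockdown replicate 1, 4744 without control replicate 2 and 1359 without a mean-variance trend, the 6775 in combined against HO2 knockdown became 3827 without HO2 knockdown replicate 1, and the 2557 in HO1 knockout against control became 1704 without HO1 knockout replicate 1. Of 1344 recomputed list counts, thresholds aside, 104 moved by over 1.5 times.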
